A study of Mus musculus with 12 samples.

Results

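The genes described here encode proteins that bind foreign or misplaced nucleic acid inside cells, with 1 adaptor and 1 editing enzyme that act with them. They were listed by name and known role, with earlier results of these data known, so the counts below are no independent evidence of their direction: Ifih1, Dhx58, Mavs, Tlr3, Eif2ak2, Zbp1, Adar and Aim2, which are 8 of the 18193 genes measured. All 8 had at least 1 probe set (a group of short probes on the array) that named no other gene, and none was lost to a filter on low signal. Not all of them are cytosolic sensors in the strict sense, because the Tlr3 protein lies in endosomes, Mavs is the adaptor of the RNA helicases and Adar edits RNA. The study asked how primary cerebellar granular neurons (CGNs), small glutamatergic cells that fill the granular layer of the cerebellum, differ when interferon-β (IFN-β) is missing and how they respond when it is added. RNA came from CGN cultures of Ifnb+/+ and Ifnb-/- mice, each either untreated or given recombinant IFN-β (rIFN-β) at 100 U/ml for 24 hours, with 3 Affymetrix arrays in each of the 4 groups and 12 in all. All groups shared the B10.RIII strain, pups of 7 days by the labels and 3 days in culture. Ifnb-/- mice lack the gene for IFN-β in every cell, and the methods allow heterozygous as well as wild-type littermates as the wild-type controls in general. The cultures were prepared in triplicate, but no source used here says that the 3 came from separate litters, so every p-value measures the spread between these cultures, which may be technical.

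Cells detect viral RNA through helicases of the RIG-I-like family. The protein MDA5, encoded by Ifih1, binds long double-stranded RNA and signals through MAVS, encoded by Mavs, on the mitochondrial surface, while LGP2, encoded by Dhx58, binds RNA and tunes the signal of the other helicases. TLR3 reads double-stranded RNA in endosomes. PKR, encoded by Eif2ak2, is a kinase that halts translation when it binds double-stranded RNA, and ZBP1 binds nucleic acid in the Z conformation and can start necroptosis. ADAR edits adenosine in double-stranded RNA and so keeps the cell's own RNA from being read as foreign, and AIM2 binds cytosolic DNA and assembles an inflammasome. Most of these genes are themselves classic targets of type I interferon, which binds the receptor IFNAR and acts on genes through interferon-stimulated response elements in DNA.

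The DNA next to the start sites shows that response element in some members. RefSeq promoter windows of the build GRCm38.p6, running from 250 bases before to 50 bases after the annotated start, were at hand for 6 of the 8 genes. The core of the element was searched on both strands as the letters GAAA, any 2 bases, and GAAA again. It was present in 2 of the 6 genes with a window, Ifih1 and Eif2ak2, and in 3.99% of all 27025 genes with a window. A shorter form, GAAANNGAA, which every match to the longer one also holds, was added after the windows had been seen. It was present in Ifih1, Eif2ak2 and Adar and in 9.76% of all genes with a window. The 6 genes have 8 windows, because Adar has several annotated starts. All Adar matches lay in its window chr3:89730468-89730767. The stretches of 30 bases below are shown because they hold these matches in genes whose response to rIFN-β is described next. Capitals mark the match, and all are written 5′ to 3′ along the gene's own strand.
Ifih1, chr2:62646206-62646235, minus strand, match from base 33 after the start: gagaagagaatcGAAACAGAAAccgatctg
Eif2ak2, chr17:78882535-78882564, minus strand, match from base 19 after the start: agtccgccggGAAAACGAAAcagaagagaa
Adar, chr3:89730738-89730767, plus strand, shorter form, match from base 34 after the start: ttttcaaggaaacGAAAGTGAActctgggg
The gamma-activated site, TTCNNNGAA, was present in the windows of Adar and Eif2ak2, which are 2 of the 6 genes, and in 9.55% of all genes with a window. The windows of Tlr3, Mavs and Aim2 held none of these letter patterns, which says nothing about DNA outside them. A match describes the letters in the window and not binding of a factor.

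All values below are the authors' log2 intensities, each gene read by its brightest single-gene probe set, so a difference of 1 is a 2-fold change. A gene was called when its adjusted p in limma was under 0.05 over all 18193 genes. The arrays were alike in scale, with median signals of 4.33 to 4.42, and arrays of the same group correlated at 0.971 to 0.998 across genes. The probe set for Ifnb1, the deleted gene, read between 2.48 and 3.06 on all 12 arrays, close to the arrays' lower quartiles of 2.69 to 2.81, so it could not check the genotype labels. No source used here says whether it lies in the deleted part. Granule neuron markers were present throughout, with group means of 11.71 to 12.36 for Neurod1 and 9.32 to 9.73 for Pax6, while Grin2c, a marker of mature granule neurons, read 2.67 to 2.83. Microglial and astrocyte markers were present as well: Csf1r had group means of 7.35 to 8.39 and Aqp4 of 9.25 to 9.84. Other microglial markers were low, with group means of 3.02 to 3.45 for Cx3cr1, 2.61 to 3.18 for P2ry12 and 1.70 to 1.96 for Gpr34. The oligodendrocyte marker Mbp (9.98 to 10.61) and the fibroblast marker Col1a2 (8.49 to 8.84) were also measured well above the lower quartiles, while the endothelial markers Pecam1 and Cdh5 lay between 2.43 and 3.45. Within these lists, the oligodendrocyte marker Mog read lower (2.38 to 2.72) and the endothelial marker Kdr higher (4.57 to 4.84). No marker of these 3 cell types was called in any comparison. The study describes these cultures as highly pure neurons. In bulk RNA of this kind fewer cells of a type and less RNA per cell cannot be told apart.

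**Figure D1:**
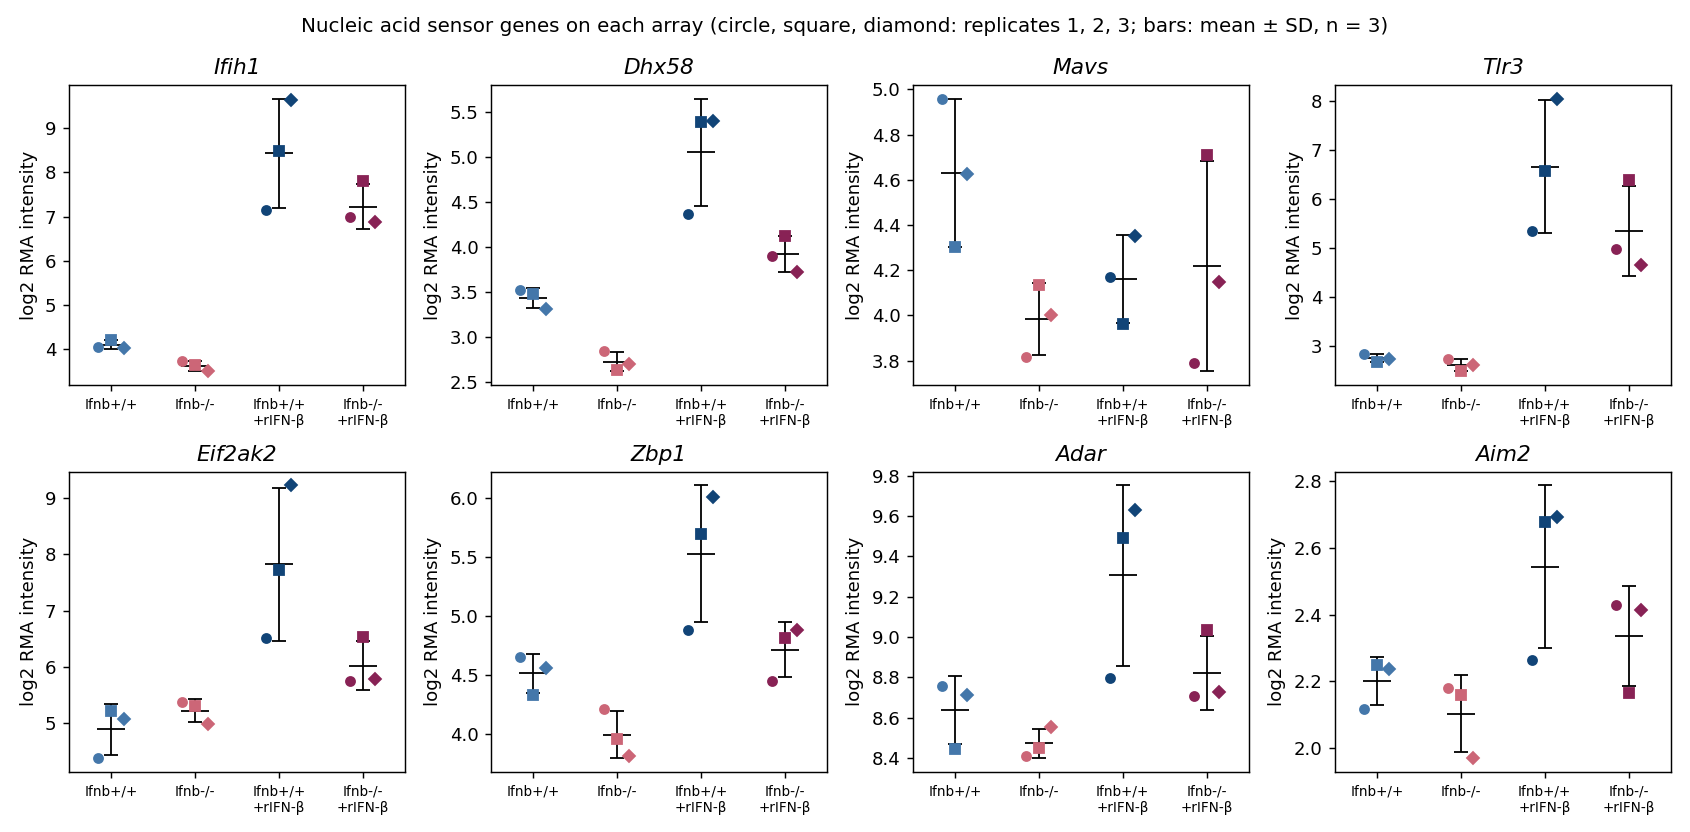
Log2 RMA intensity (y axis, own scale in each panel) of the 8 genes on each of the 12 arrays, by group. Points are arrays, with the shape giving the replicate number, and bars are the mean ± SD (n = 3). Ifih1, Tlr3, Eif2ak2 and Dhx58 lie above all untreated Ifnb+/+ arrays on every rIFN-β-treated Ifnb+/+ array, and Mavs does not.

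rIFN-β raised most of the sensors in Ifnb+/+ neurons. Ifih1, Tlr3, Eif2ak2, Dhx58 and Zbp1 were called higher, which is 5 of 8 against a background of 1.78% of all genes, and 0 of 8 were called lower, against 1.36%. The treated and untreated arrays did not overlap in 7 of the 8, all higher with treatment, against 6.67% of all genes. The median log2 fold change of the 8 was 1.32, and that of all genes was -0.03. In Ifnb-/- neurons, 3 of 8 were called higher, Ifih1, Tlr3 and Dhx58, against 0.929% of all genes, and 0 of 8 were called lower, against 0.742%. There 6 of 8 did not overlap and were higher with treatment, against 20.3% of all genes, and the median was 0.76 for the 8 and 0.07 for all genes.

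Among the RIG-I-like helicases, Ifih1 rose strongly in both genotypes. It read 4.04, 4.20 and 4.02 on the untreated Ifnb+/+ arrays and 7.16, 8.50 and 9.64 on the treated ones. In Ifnb-/- neurons it read 3.71, 3.63 and 3.49 untreated and 6.99, 7.81 and 6.87 treated. All treated arrays thus stood far above all untreated ones in both genotypes, and the 3 treated Ifnb+/+ arrays were widely spread. The log2 fold change was 4.34 (SE 0.46) in Ifnb+/+ neurons, a 20.3-fold rise with a limma adjusted p of 0.000229. In Ifnb-/- neurons it was 3.62 (SE 0.46), a 12.3-fold rise with a limma adjusted p of 0.00176. These changes ranked 29 and 19 from the top among all genes, and both calls held whichever of the 12 arrays was left out.

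Dhx58, whose product LGP2 has no signalling domain of its own, rose less. It read 3.52, 3.47 and 3.30 untreated and 4.36, 5.39 and 5.40 treated in Ifnb+/+ neurons, and 2.85, 2.63 and 2.70 untreated and 3.90, 4.12 and 3.72 treated in Ifnb-/- neurons. Treated and untreated arrays were separate in both genotypes. The log2 fold change was 1.62 (SE 0.23, limma adjusted p 0.0022) in Ifnb+/+ and 1.19 (SE 0.23, limma adjusted p 0.0252) in Ifnb-/- neurons. The Ifnb+/+ call held with any 1 array left out, but was lost when the fit held just the compared groups (limma adjusted p 0.0575). The Ifnb-/- call was lost without any 1 of the 6 Ifnb-/- arrays, where the limma adjusted p lay between 0.0613 and 0.122 and the log2 fold change between 1.09 and 1.29.

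Mavs, the adaptor through which RIG-I and MDA5 signal, was not called in either genotype. It read 4.96, 4.30 and 4.63 untreated and 4.17, 3.96 and 4.35 treated in Ifnb+/+ neurons, and 3.81, 4.14 and 4.00 untreated and 3.79, 4.71 and 4.15 treated in Ifnb-/- neurons. The groups overlapped in both genotypes. The log2 difference was -0.47 (95% interval -0.96 to 0.02, limma adjusted p 0.269) in Ifnb+/+ and 0.23 (95% interval -0.25 to 0.72, limma adjusted p 0.64) in Ifnb-/- neurons.

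The endosomal receptor gene Tlr3 lay around the arrays' lower quartile without rIFN-β and well above it with rIFN-β. It read 2.83, 2.68 and 2.74 untreated and 5.34, 6.57 and 8.04 treated in Ifnb+/+ neurons, and 2.73, 2.48 and 2.62 untreated and 4.98, 6.38 and 4.65 treated in Ifnb-/- neurons. No treated array overlapped an untreated one, and replicate 2 of the treated Ifnb-/- arrays stood above the other two. The log2 fold change was 3.90 (SE 0.55, limma adjusted p 0.00209) in Ifnb+/+ and 2.73 (SE 0.55, limma adjusted p 0.0305) in Ifnb-/- neurons. With untreated values this close to the lower quartile, the sizes of these changes are uncertain. Another probe set of the gene, described below, gave smaller changes and was called in Ifnb+/+ neurons only. The Ifnb-/- call was lost without any 1 of the 6 Ifnb-/- arrays or without untreated Ifnb+/+ replicate 3, with limma adjusted p values of 0.0547 to 0.133 and log2 fold changes of 2.20 to 3.07.

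The kinase gene Eif2ak2 was called in Ifnb+/+ neurons. It read 4.38, 5.21 and 5.07 untreated and 6.50, 7.73 and 9.23 treated there, and 5.37, 5.31 and 4.99 untreated and 5.74, 6.53 and 5.79 treated in Ifnb-/- neurons. The groups did not overlap in either genotype, although in Ifnb-/- neurons the lowest treated array was close to the highest untreated one. The log2 fold change was 2.93 (SE 0.51, limma adjusted p 0.00806), a 7.63-fold rise, in Ifnb+/+ neurons. In Ifnb-/- neurons it was 0.80 (95% interval -0.31 to 1.91, limma adjusted p 0.485). The Ifnb+/+ call was lost when the fit held just the compared groups (limma adjusted p 0.114). Another probe set of the gene, described below, was called in both genotypes.

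Zbp1, the sensor that can trigger necroptosis, rose in Ifnb+/+ neurons by the narrowest margin of the called genes. It read 4.65, 4.33 and 4.55 untreated and 4.88, 5.69 and 6.0 treated in Ifnb+/+ neurons, and 4.20, 3.96 and 3.81 untreated and 4.44, 4.81 and 4.88 treated in Ifnb-/- neurons. Treated arrays were above untreated ones in both genotypes without overlap. The log2 fold change was 1.01 (SE 0.24, limma adjusted p 0.0437) in Ifnb+/+ and 0.72 (SE 0.24, limma adjusted p 0.19) in Ifnb-/- neurons. The Ifnb+/+ call held without untreated Ifnb+/+ replicate 2, treated Ifnb+/+ replicate 1 or treated Ifnb-/- replicate 2. It was lost without any 1 of the other 9 arrays, with limma adjusted p values of 0.0549 to 0.163 and log2 fold changes of 0.77 to 1.08. The Ifnb-/- difference was called without treated Ifnb+/+ replicate 1, an array that enters it through the shared spread alone (limma adjusted p 0.0428). With just the compared groups in the fit, the Ifnb+/+ call was lost (limma adjusted p 0.228) and the Ifnb-/- difference was called (limma adjusted p 0.0294).

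Adar, the RNA editing enzyme, and Aim2, the DNA sensor, were not called in either genotype. Adar read 8.76, 8.45 and 8.71 untreated and 8.80, 9.49 and 9.63 treated in Ifnb+/+ neurons, and 8.41, 8.45 and 8.55 untreated and 8.71, 9.03 and 8.73 treated in Ifnb-/- neurons. The groups did not overlap, but the lowest treated Ifnb+/+ array lay just above the highest untreated one. The log2 difference was 0.67 (95% interval 0.25 to 1.08, limma adjusted p 0.0886) in Ifnb+/+ and 0.35 (95% interval -0.07 to 0.77, limma adjusted p 0.423) in Ifnb-/- neurons. Without treated Ifnb+/+ replicate 1 the Ifnb+/+ difference was 0.92 and was called (limma adjusted p 0.00303). Aim2 read 1.97 to 2.69 over the 12 arrays, below their lower quartiles, with log2 differences of 0.34 (limma adjusted p 0.191) in Ifnb+/+ and 0.23 (limma adjusted p 0.447) in Ifnb-/- neurons. Without treated Ifnb+/+ replicate 1 the Ifnb+/+ difference of Aim2 was 0.48 (limma adjusted p 0.0461), and 7 of the 8 genes were called higher, against 3.65% of all genes in that fit.

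**Figure D2:**
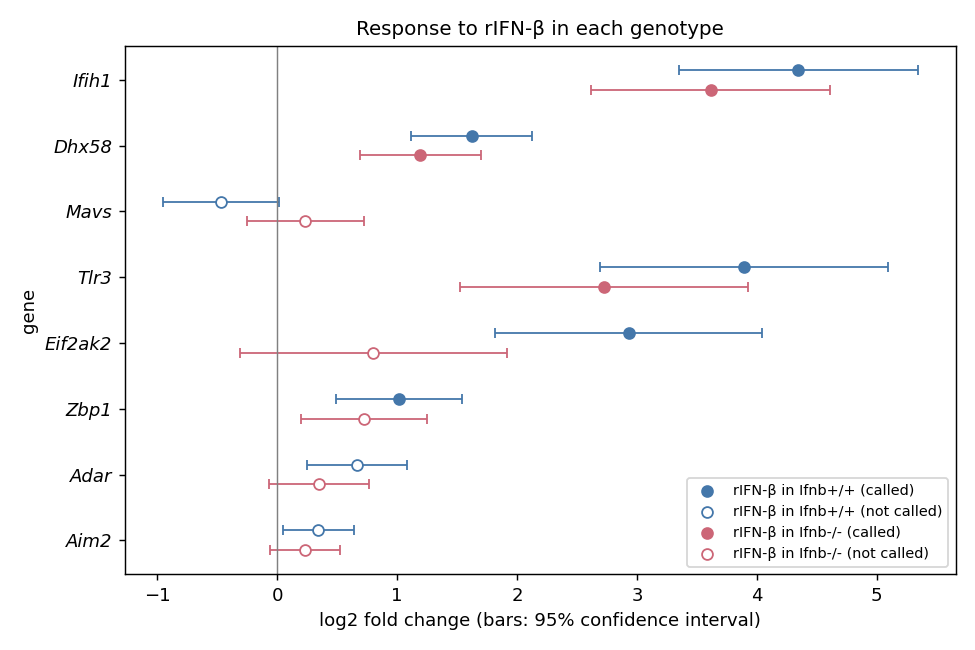
Log2 fold change with rIFN-β (x axis) for each gene in Ifnb+/+ and Ifnb-/- neurons, with 95% confidence intervals from limma on 3 arrays a group. Filled points passed an adjusted p of 0.05 over all genes: 5 genes in Ifnb+/+ and 3 in Ifnb-/- neurons, with Ifih1 at 4.34 and 3.62.

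The treated arrays differed among themselves in the same way for nearly every gene. Of the 3 treated Ifnb+/+ arrays, replicate 3 was the highest in 8 of 8 genes and replicate 1 the lowest in 7. Of the 3 treated Ifnb-/- arrays, replicate 2 was the highest in 6 of 8. Astrocyte markers moved along: the summed linear intensity of 10 such markers was 2716 on treated Ifnb+/+ replicate 1 and 4626 and 4730 on replicates 2 and 3. On the treated Ifnb-/- arrays it was 2676, 6449 and 2468 in replicate order, so that the array highest in 6 of the 8 genes was also the one with the most astrocyte signal. The summed intensity of 9 oligodendrocyte lineage markers was 2337, 2043 and 3299 on the treated Ifnb+/+ arrays and 1910, 2594 and 2016 on the treated Ifnb-/- arrays in replicate order, highest on the same array of each group as most of the sensors. On the untreated arrays the astrocyte sum ran from 2897 to 4346 in Ifnb+/+ and from 2909 to 2948 in Ifnb-/- neurons. None of the astrocyte and oligodendrocyte markers was called in any comparison, and their part in the sensor values was not tested.

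Microglial markers, from a cell type rich in nucleic acid sensors, moved against the sensors. The summed linear intensity of 18 such markers was 3908 to 4944 in untreated and 2156 to 2859 in treated Ifnb+/+ neurons, and 2963 to 3268 in untreated and 2251 to 2569 in treated Ifnb-/- neurons. With rIFN-β, 8 of the 18 were called lower in Ifnb+/+ and 1 in Ifnb-/- neurons, and 0 were called higher. The part of these markers in the sensor values was not tested. The granule neuron sum over 16 markers was 16503 to 18932 in untreated and 19316 to 21020 in treated Ifnb+/+ neurons, and 21978 to 24353 in untreated and 19101 to 21878 in treated Ifnb-/- neurons, with no marker called in either response to rIFN-β. Between treated genotypes 1 of the 16, Gabra6, was called, higher in Ifnb-/- neurons (log2 difference 1.44, limma adjusted p 0.0221).

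Several genes have more than 1 probe set, and these did not always give the same size. The 8 genes have 17 single-gene probe sets, of which 9 were called higher with rIFN-β in Ifnb+/+ neurons, against 1.03% of all 45037 probe sets tested, and 4 in Ifnb-/- neurons, against 0.413%. For Eif2ak2 the brightest probe set gave the smallest Ifnb-/- response of its 3. The probe set 1440866_at read 2.74, 2.86 and 2.80 untreated and 5.61, 7.52 and 8.68 treated in Ifnb+/+ neurons, and 2.42, 2.61 and 2.42 untreated and 5.37, 6.11 and 5.04 treated in Ifnb-/- neurons. All treated arrays of both genotypes were more than 2 units above all untreated ones on this probe set, whose untreated values lay around the lower quartile. Its log2 fold change was 4.47 (SE 0.56, limma adjusted p 0.00176) in Ifnb+/+ and 3.02 (SE 0.56, limma adjusted p 0.0323) in Ifnb-/- neurons. The Ifnb-/- call for Eif2ak2 therefore depends on which probe set is read.

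For Adar the probe set 1439276_at was called in Ifnb+/+ neurons. It read 6.05, 6.59 and 6.28 untreated and 7.14, 9.11 and 8.52 treated there, with a log2 fold change of 1.95 (SE 0.43, limma adjusted p 0.0451), against 0.80 (limma adjusted p 0.427) in Ifnb-/- neurons. Zbp1 has a second probe set, 1429947_a_at, with a log2 fold change of 1.58 (limma adjusted p 0.0226) in Ifnb+/+ and 0.73 (limma adjusted p 0.303) in Ifnb-/- neurons. In this test over all probe sets the brightest one of Zbp1, 1419604_at, missed the threshold in Ifnb+/+ neurons (limma adjusted p 0.0642). The 2 dimmer Dhx58 probe sets were not called, and 1 of them, 1420769_at, had a log2 difference of 0.01 in Ifnb+/+ neurons. The brightest Tlr3 probe set carries the suffix _s_at, which Affymetrix gives to probe sets that can match more than 1 transcript. The other Tlr3 probe set, 1422781_at, had a log2 fold change of 2.35 (limma adjusted p 0.0253) in Ifnb+/+ neurons. In Ifnb-/- neurons its change was 1.19 (limma adjusted p 0.267) and was not called. The Ifnb-/- call for Tlr3 therefore also depends on which probe set is read.

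**Figure D3:**
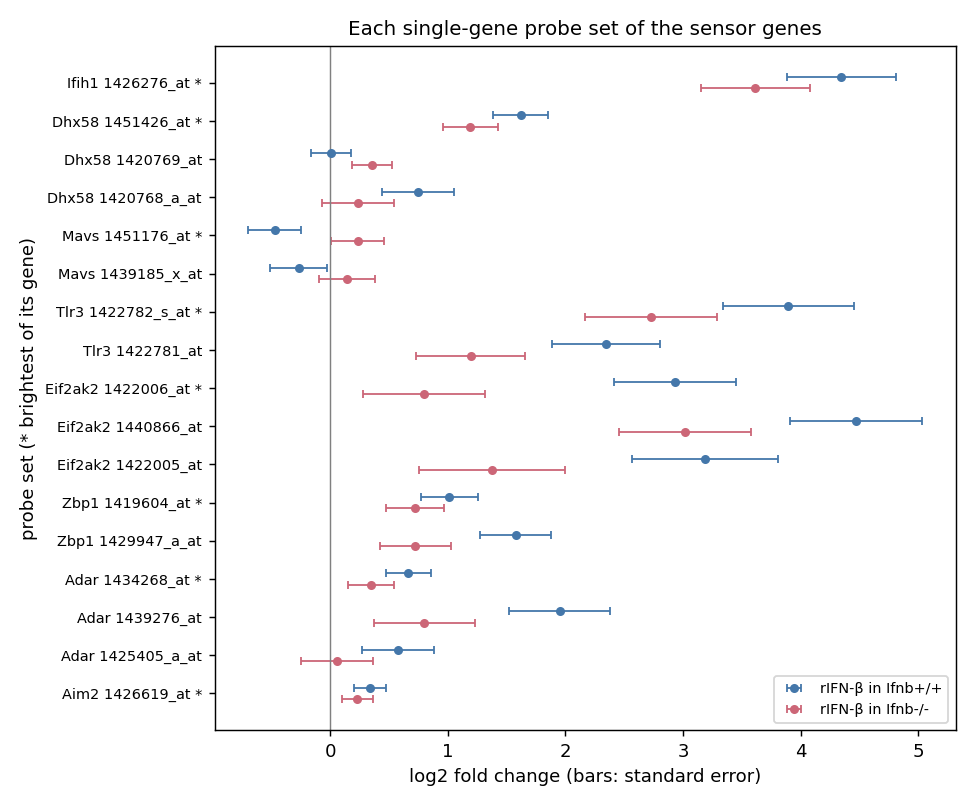
Log2 fold change with rIFN-β (x axis) for each of the 17 single-gene probe sets (y axis, an asterisk marks the brightest of its gene) in Ifnb+/+ and Ifnb-/- neurons, with bars giving the standard error. The 3 Eif2ak2 probe sets run from 2.93 to 4.47 in Ifnb+/+ and from 0.80 to 3.02 in Ifnb-/- neurons.

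Without rIFN-β, Ifnb-/- and Ifnb+/+ neurons were compared to ask whether loss of the endogenous cytokine lowers the sensors at rest. No member was called (limma, 0 of 8, against 0.115% of all genes), and at an unadjusted p under 0.05 there were 2 of 8, Dhx58 and Mavs, against 21.2% of all genes. Ifih1, Dhx58, Mavs and Zbp1 were lower on every Ifnb-/- array than on any Ifnb+/+ array, which is 4 of 8 against 18.1% of all genes. The median log2 difference of the 8 was -0.32, and that of all genes was -0.09. Dhx58 differed by -0.71 (95% interval -1.21 to -0.20, limma adjusted p 0.185), Mavs by -0.65 (95% interval -1.13 to -0.16, limma adjusted p 0.192), Zbp1 by -0.52 (limma adjusted p 0.238) and Ifih1 by -0.48 (limma adjusted p 0.548). In array values, the Ifnb-/- readings of Dhx58 lay between 2.63 and 2.85 and the Ifnb+/+ ones between 3.30 and 3.52, a small but clean gap at low signal.

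On their brightest probe sets the other 4 genes overlapped between untreated genotypes. Their log2 differences were 0.34 for Eif2ak2, -0.14 for Tlr3, -0.17 for Adar and -0.10 for Aim2. Without overlap, 1440866_at of Eif2ak2 (-0.31) and 1422781_at of Tlr3 (-0.37) were lower in Ifnb-/- neurons and 1439276_at of Adar (0.46) higher. Overlap was seen for 1422005_at of Eif2ak2 (0.12) and 1425405_a_at of Adar (-0.43). The dimmer probe sets of Dhx58 and Zbp1 overlapped too, and that of Mavs was lower without overlap. None of these probe sets was called by limma. Mavs was called without untreated Ifnb+/+ replicate 2, with a log2 difference of -0.81 (limma adjusted p 0.0334), which is 1 of 8 against 12.1% of all genes called lower in that fit. With arrays weighted by their own spread, Dhx58, Mavs and Zbp1 were called, but that fit gave untreated Ifnb+/+ replicate 3 a weight of 7.28 and the other 2 arrays of the group 0.249 and 0.410. The share of all genes called in that fit was not counted. Some microglial markers differed in the same direction between the untreated genotypes. Of the 18, 7 were lower on every Ifnb-/- array, against 18.1% of all genes, and 1, Trem2, was called (log2 difference -1.03, limma adjusted p 0.0164). Other microglial markers hardly differed, such as Gpr34 (-0.01), or were higher by mean, such as Ptprc (0.16). The part of these markers in the sensor values was not tested.

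With rIFN-β present in both, the sensors were lower in Ifnb-/- neurons in 7 of 8 genes by mean, and no difference was called (limma, 0 of 8, against 0.0605% of all genes). At an unadjusted p under 0.05 there were 6 of 8, all lower in Ifnb-/- neurons, against 4.94% of all genes in either direction. Arrays of the 2 genotypes did not overlap in 1 of 8, Dhx58, against 3.47% of all genes lower in Ifnb-/- neurons. The log2 difference was -1.80 (95% interval -2.91 to -0.68, limma adjusted p 0.449) for Eif2ak2, -1.31 (limma adjusted p 0.93) for Tlr3, -1.21 (limma adjusted p 0.809) for Ifih1 and -1.14 (95% interval -1.64 to -0.63, limma adjusted p 0.165) for Dhx58. It was -0.81 for Zbp1, -0.48 for Adar, -0.21 for Aim2 and 0.06 for Mavs. The median of the 8 was -0.97, and that of all genes was 0.03.

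The count turned on 1 array. Without treated Ifnb+/+ replicate 1, the lowest of its group in 7 of 8 genes, 5 of 8 genes were called lower in Ifnb-/- neurons, against 1.07% of all genes in the same fit: Eif2ak2 at -2.45 (limma adjusted p 0.012), Ifih1 at -1.85 (limma adjusted p 0.017), Dhx58 at -1.48 (limma adjusted p 0.0005), Zbp1 at -1.14 (limma adjusted p 0.0097) and Adar at -0.74 (limma adjusted p 0.033). Without any other single array, 0 of 8 were called.

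**Figure D4:**
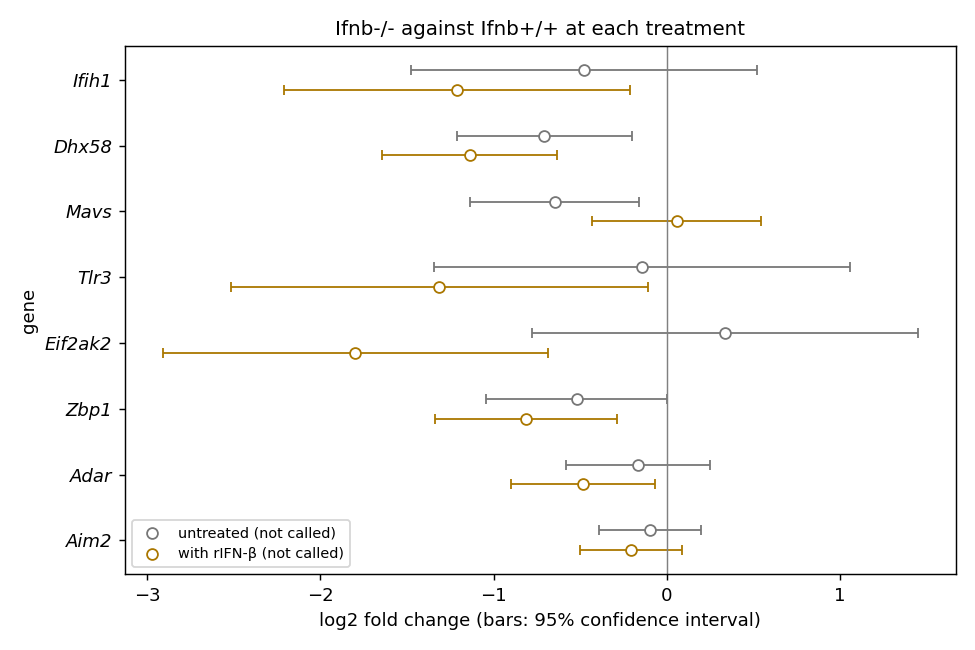
Log2 difference of Ifnb-/- from Ifnb+/+ neurons (x axis) for each gene, untreated and with rIFN-β, with 95% confidence intervals from limma on 3 arrays a group. No point passed an adjusted p of 0.05. With rIFN-β, 7 of the 8 points lie left of 0 and Mavs lies at 0.06.

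The interaction of genotype and rIFN-β, which tests whether the response differed between genotypes, was called for 0 of 8 genes by limma, against 0.022% of all genes. At an unadjusted p under 0.05 there were 2 of 8, Eif2ak2 and Mavs, against 15.3% of all genes. The response of Eif2ak2 was smaller in Ifnb-/- neurons by 2.13 log2 units (95% interval of the difference -3.71 to -0.56, limma adjusted p 0.323), and that of Mavs differed by 0.70 in the other direction (95% interval 0.01 to 1.39, limma adjusted p 0.324). On the Eif2ak2 probe set 1440866_at the interaction was -1.45 (SE 0.79, limma adjusted p 0.416). The median over the 8 genes was -0.37 and over all genes 0.11. These 5 comparisons share arrays, so their values for a gene are not independent of each other.

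Genes that work around the sensors were followed in 6 lists of signalling partners, with 114 of 124 listed genes measured. With rIFN-β, 11 of the 114 were called higher and 4 lower in Ifnb+/+ neurons, against the same 1.78% and 1.36% of all genes, and 3 were called higher and 1 lower in Ifnb-/- neurons, against 0.929% and 0.742%. The median log2 difference over the 114 was 0.02 in Ifnb+/+ and 0.08 in Ifnb-/- neurons, close to all genes at -0.03 and 0.07. None was called between the genotypes, untreated or treated, or for the interaction. Unadjusted p values under 0.05 were reached by 26 of the 114 between untreated genotypes, against 21.2% of all genes, and by 21 for the interaction, against 15.3%. Between treated genotypes they were reached by 20, all lower in Ifnb-/- neurons, against 4.94% of all genes in either direction.

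The RIG-I-like receptor list held 5 called of 32 in Ifnb+/+ and 3 in Ifnb-/- neurons, all higher. Ddx58, which encodes the RNA helicase RIG-I, read 5.39, 4.71 and 5.48 untreated and 8.39, 9.31 and 9.94 treated in Ifnb+/+ neurons, and 4.94, 5.20 and 4.97 untreated and 7.16, 8.13 and 7.06 treated in Ifnb-/- neurons. Treated arrays were more than 1.5 units above untreated ones throughout. Its log2 fold change was 4.02 (SE 0.37, limma adjusted p 7.06e-05) and 2.41 (SE 0.37, limma adjusted p 0.00612). Irf7, a transcription factor that amplifies interferon production, rose by 3.41 (limma adjusted p 0.00082) in Ifnb+/+ and 2.38 (limma adjusted p 0.0173) in Ifnb-/- neurons. Trim25, the ubiquitin ligase that activates RIG-I, rose by 3.04 and 2.25 (limma adjusted p 0.00222 and 0.0249). Zc3hav1, a zinc finger antiviral protein, rose by 2.49 (limma adjusted p 0.00222) in Ifnb+/+ neurons and differed by 1.57 (limma adjusted p 0.0504) in Ifnb-/- neurons.

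Among genes for endosomal receptors, 1 of 17 rose and 1 fell in Ifnb+/+ neurons and 0 were called in Ifnb-/- neurons. Myd88, the adaptor of most Toll-like receptors but not of TLR3, rose by 1.31 (limma adjusted p 0.0129), and Tlr13, a receptor for bacterial ribosomal RNA, fell by 1.34 (limma adjusted p 0.0294). In the list for DNA sensing, 3 of 26 rose in Ifnb+/+ neurons and 0 were called in Ifnb-/- neurons. All 3 belong to the AIM2-like family: Ifi209, which was listed under its other name Pyhin1, rose by 2.63 (limma adjusted p 0.00592), Ifi204 by 2.65 (limma adjusted p 0.00822) and Mndal by 2.26 (limma adjusted p 0.0115). Cgas, the enzyme that turns cytosolic DNA into a second messenger, differed by 0.55 (limma adjusted p 0.148) in Ifnb+/+ and 0.51 (limma adjusted p 0.249) in Ifnb-/- neurons. Sting1, which receives that messenger, differed by 0.37 (limma adjusted p 0.126) and 0.50 (limma adjusted p 0.0632).

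In the necroptosis list 1 of 7 genes was called: Mlkl, the executioner that acts downstream of ZBP1, rose by 2.22 (limma adjusted p 0.0104) in Ifnb+/+ neurons. In the list of PKR and eIF2 kinases 1 of 16 was called: Ppp1r15a, the phosphatase subunit that reverses eIF2 phosphorylation, fell by 0.55 (limma adjusted p 0.028) in Ifnb+/+ neurons. In the list of RNA editing and nucleic acid clearance 3 of 16 were called there: Samhd1, which breaks down deoxynucleotides, rose by 1.86 (limma adjusted p 0.0267), and the endolysosomal nucleases Pld3 and Pld4 fell by 0.72 (limma adjusted p 0.0148) and 0.76 (limma adjusted p 0.0194). Pld4 also fell by 0.77 (limma adjusted p 0.0287) in Ifnb-/- neurons, the 1 gene of the 6 lists called lower there. The microglial markers that were called lower, 8 in Ifnb+/+ and 1 in Ifnb-/- neurons, moved in the same direction as Tlr13, Pld3 and Pld4, and their part in these falls was not tested.

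**Figure D5:**
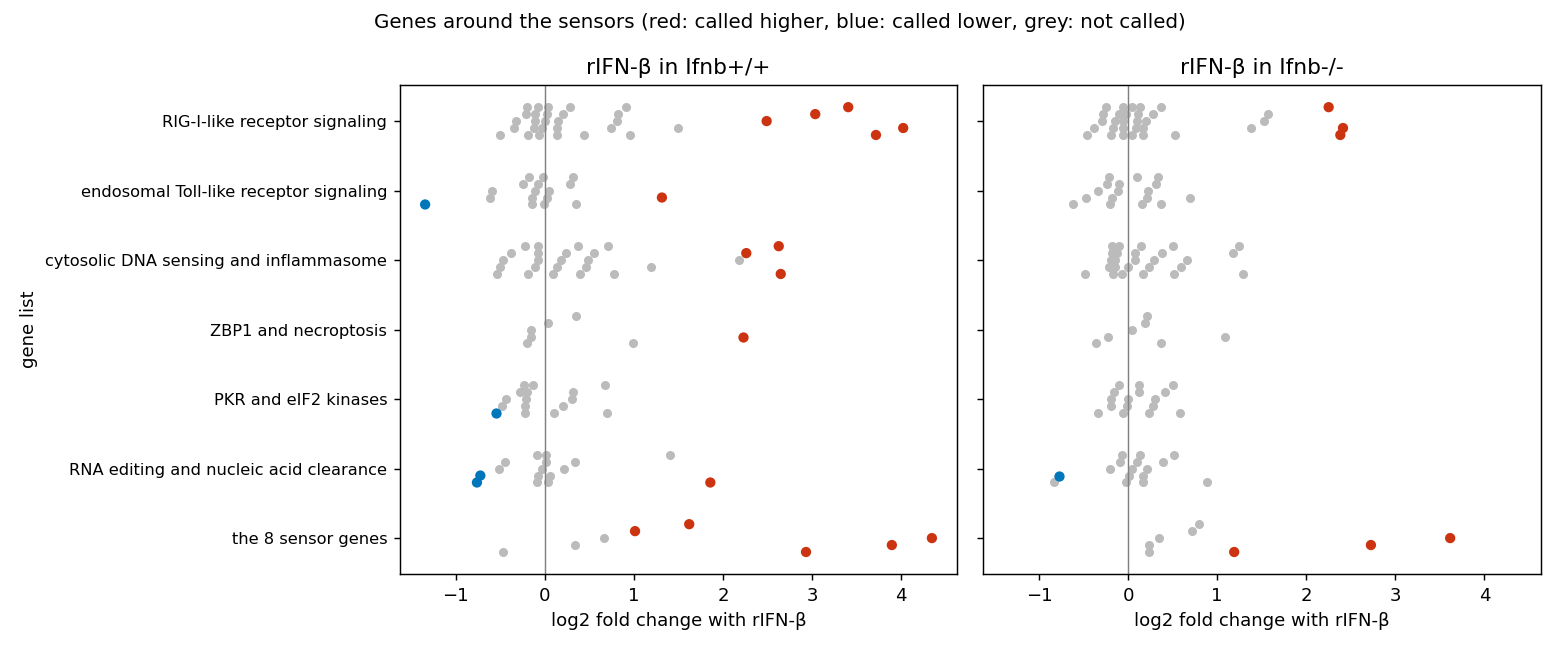
Log2 fold change with rIFN-β (x axis) for each measured gene of the 6 lists and for the 8 sensor genes (y axis), in Ifnb+/+ neurons on the left and Ifnb-/- neurons on the right. Each point is a gene, red where called higher and blue where called lower. Most grey points lie near 0, while 5 of the 8 sensors are red on the left and 3 on the right.

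For each sensor called in a response to rIFN-β, the genes most like it were found as those with the smallest root mean square difference over the 12 arrays after centring each gene. Ifih1 was nearest to Rnf213 (0.282 log2 units) and Tent5a (0.301), and Tlr3 to Slfn8 (0.277) and Trim30a (0.284). Dhx58 was nearest to Lgals3bp (0.206) and Trim14 (0.218). Eif2ak2 was nearest to Ifi204 (0.293) and Slfn5 (0.317), and Zbp1 to Enc1 (0.180) and Serpinb9 (0.201). No sensor was among the 2 nearest genes kept for another. With so few kept out of all genes, this does not show that the sensors' patterns differ.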

How the data were processed

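RNA from 12 CGN cultures was hybridised to Affymetrix mouse genome arrays. Per the methods, the authors normalized the arrays by quantiles with RMA in Arraystar and deposited log2 intensities for 45037 probe sets. From these, 34945 probe sets naming 1 gene in the platform annotation were reduced to the brightest for each of 18193 genes. limma 3.58.1 in R 4.3.3 fitted 4 group means over all 12 arrays, and p-values were adjusted by Benjamini-Hochberg over all genes. The fit was tested on simulated data. The number of arrays, 3 a group, limits the precision. The members and lists were chosen with earlier results of these data known. Named genes were all members, Rigi (Ddx58 on the platform), Cgas, Sting1, up to 3 genes with the smallest adjusted p per list and rIFN-β response (with ties), 2 nearest genes per called member and leading cell type markers. Grin2c, Trem2, Gabra6, Cx3cr1, P2ry12, Gpr34, Mog, Kdr and the other probe sets were named after their values were seen. Alternatives were another choice of probe set, filter, scaling, spread, block and test, and each array left out. The methods used an unpaired test, so the main fit had no block for replicate numbers. Promoter sequences came from RefSeq.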

Additional observations from a re-analysis of the deposited data

How the results depend on the processing

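The counts of called members depended on the number of arrays and on how the spread was estimated. With each array left out in turn, the members called ranged from 4 to 7 for rIFN-β in Ifnb+/+ neurons, 1 to 4 for rIFN-β in Ifnb-/- neurons, 0 to 1 between untreated genotypes, 0 to 5 between treated genotypes and 0 to 0 for the interaction. For rIFN-β in Ifnb+/+ neurons the 5 called became 2 among genes with a mean of at least 5, 2 when the fit held just the compared groups and 0 by the methods' t-test with Benjamini-Hochberg adjustment. For rIFN-β in Ifnb-/- neurons the 3 called became 1 when each gene's probe sets were averaged, 1 among genes with a mean of at least 5, 5 with array weights and 5 by the methods' unadjusted t-test with 1.5-fold. The mean filter removed Dhx58, Tlr3, Zbp1, Mavs and Aim2 from the test, so that of the members just Ifih1, Eif2ak2 and Adar were tested. Between untreated genotypes, 0 became 3 with array weights and 2 with unadjusted p and 1.5-fold by limma and by the methods' t-test. Between treated genotypes, 0 became 2 with array weights, 5 with unadjusted limma and 1.5-fold and 1 by the methods' t-test. For the interaction, 0 became 3 with array weights and 2 with unadjusted limma and 1.5-fold. The share of all genes called was not counted in these settings or with the replicate block below. The exceptions are the fits without 1 array for which it is given above. The counts in those settings therefore cannot be read as results about the members. The interaction needs all 4 groups, so it has no t-test and no fit of 2 groups. Correlations of same-numbered deviations between untreated and treated arrays ran from 0.065 to 0.30 in Ifnb+/+ and from 0.051 to 0.073 in Ifnb-/- neurons. Between genotypes they ran from -0.017 to 0.13 untreated and from -0.50 to 0.43 treated. These values do not settle whether replicate numbers pair the samples. With the replicate block the counts of members called were 5, 3, 0, 0 and 0, as without it. Directions turned where differences were near 0 or probe sets disagreed. For Mavs the log2 difference with rIFN-β in Ifnb-/- neurons ranged from -0.014 (without treated Ifnb-/- replicate 2) to 0.45 with each array left out. Between treated genotypes it was -0.030 with its probe sets averaged, -0.12 with each probe set on its own and -0.13 with array weights, and it ranged from -0.19 (without treated Ifnb-/- replicate 2) to 0.27 with each array left out, with -0.042 without treated Ifnb+/+ replicate 2. The interaction of Dhx58 was 0.35 on 1 of its dimmer probe sets. The cause was not tested beyond the genes the filter removed and the samples each fit held.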
